A study of Mus musculus with 13 samples.

Results

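The genes described here are 56 mouse genes whose products carry out mitosis and cytokinesis. They were chosen by name and matched to Ensembl gene IDs. Earlier results of these data were known at the choice, so the shares of the 56 called below are descriptions. All 56 were among the 43430 genes of the count table, and all 56 passed the filter on low counts that left 11906 genes for testing. The RNA came from alveolar macrophages that were isolated by flow sorting from male C57Bl/6 mice of 10 weeks. Mice drank water with metformin (100 mg/kg/day) or vehicle, starting 24 h ahead of an instillation into the trachea, and lungs were taken 24 h after it. The instillate was saline (PBS) or 10 µg of PM, a standardised urban particulate matter of the US NIST. The groups were vehicle PBS (4 libraries), metformin PBS (3 libraries), vehicle PM (3 libraries) and metformin PM (3 libraries), each library a biological replicate by the study's design text. Libraries are called by group and by the replicate number in their labels, so that metformin PBS holds numbers 1, 3 and 4, vehicle PM numbers 1, 2 and 3, and metformin PM numbers 1, 3 and 4. The study tested 1 dose of each agent and 1 time point.

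Resident alveolar macrophages maintain their number in the adult lung largely by dividing in place, and at any time only a small share of them is in the cell cycle. Mitosis begins when cyclin B and CDK1 drive chromosome condensation and spindle assembly. The spindle checkpoint then holds cells before anaphase until every kinetochore is attached, and cytokinesis finally separates the daughter cells. Most of these genes are transcribed in G2 and M phase, when the MuvB complex with B-MYB and FOXM1 acts at the cell cycle genes homology region (CHR) of their promoters, while the DREAM complex represses the same genes in resting cells. NF-Y, which binds the CCAAT box, acts at many of the same promoters.

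The promoters are shown first because they are a shared feature, and their letters did not enter the choice of genes. The CHR is known from promoters of such genes, so a raised share is a description and not an independent result. A RefSeq promoter on GRCm38.p6, 250 bases before to 50 bases after the transcript start, matched 47 of the 56 genes by symbol. Each was searched on both strands for CHR letters and for the box of NF-Y. The first CHR form was TTTGAA, which a match on the opposite strand shows as its reverse complement TTCAAA. The second CHR form, the same on either strand and counted once, was TTTAAA. The NF-Y box was searched as CCAAT, which a match on the opposite strand shows as ATTGG. CHR letters lay within 50 bases of a transcript start in 36 of the 47 genes (76.6%), against 9.54% of 27025 genes in the same table. CCAAT was present in 34 of the 47 (72.3%), against 41.1% of all genes, and at least 2 copies in 23 (48.9%), against 13.3%. Both features together occurred in 31 of the 47 (66%), against 3.88% of all genes. E2F letters (TTTCCCGC, TTTGGCGC or TTTCGCGC, on either strand) were in 4 of the 47 (8.51%), against 2.12%. Aurka, Cdc20, Ccnb1 and Ube2c are among those with both CHR and CCAAT, while Mad2l1, Melk, Ncaph, Nuf2, Nusap1 and Tacc3 held neither set of letters in this window. The 50-base limit was set after the data were in hand, no searched motif contains another, and a match describes letters, not binding. The 7 stretches printed here run from 120 bases before to 30 bases from the start, on the strand of the gene, with CHR and CCAAT letters of either strand in capitals. They belong to genes that the results turn on: Ect2 and Kif14 had the largest differences, Plk1 differed after PM, and Cdc20, Ccnb1, Cenpe and Kif11 stand for anaphase promotion, mitotic entry, the kinetochore and the spindle motors. A RefSeq start need not be the start of the counted gene. That of Kif14, which is among the 36 genes, lies inside the counted gene, whose span begins at position 136466343. Kif14 is not the only such case. The starts of Cdca8, also among the 36, and of Kif2c lie inside minus-strand genes whose spans end at 124939311 and 117182639.
Ect2, chr3:27153825-27153974, minus strand: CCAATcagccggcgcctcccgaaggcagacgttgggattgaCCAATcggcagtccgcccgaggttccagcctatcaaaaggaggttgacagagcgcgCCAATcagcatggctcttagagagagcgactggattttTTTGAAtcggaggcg
Kif14, chr1:136467728-136467877, plus strand: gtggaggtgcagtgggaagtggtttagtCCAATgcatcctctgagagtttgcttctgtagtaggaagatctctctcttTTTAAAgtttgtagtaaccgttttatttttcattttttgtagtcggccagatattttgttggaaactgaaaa
Plk1, chr7:122159315-122159464, plus strand: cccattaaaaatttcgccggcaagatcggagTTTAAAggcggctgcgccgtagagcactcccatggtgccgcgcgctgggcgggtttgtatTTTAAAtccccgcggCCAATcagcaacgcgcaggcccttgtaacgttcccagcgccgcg
Cdc20, chr4:118437314-118437463, minus strand: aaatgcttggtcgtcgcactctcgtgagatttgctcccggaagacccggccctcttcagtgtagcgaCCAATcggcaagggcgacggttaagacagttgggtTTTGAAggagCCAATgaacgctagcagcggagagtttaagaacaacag
Ccnb1, chr13:100786457-100786606, minus strand: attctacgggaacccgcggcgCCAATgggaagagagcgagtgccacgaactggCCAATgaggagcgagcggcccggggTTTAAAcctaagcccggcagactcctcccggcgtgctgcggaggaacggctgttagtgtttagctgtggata
Cenpe, chr3:135212443-135212592, plus strand: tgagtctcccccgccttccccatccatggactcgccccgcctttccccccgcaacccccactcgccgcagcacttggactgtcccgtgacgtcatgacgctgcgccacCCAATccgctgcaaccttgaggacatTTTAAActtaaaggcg
Kif11, chr19:37376262-37376411, plus strand: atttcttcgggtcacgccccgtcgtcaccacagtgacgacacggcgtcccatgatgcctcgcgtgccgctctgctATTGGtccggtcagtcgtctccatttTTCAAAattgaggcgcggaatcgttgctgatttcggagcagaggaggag

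Positions of the matches differed between the sets of letters. CHR matches gathered from shortly before to shortly after the start, and CCAAT matches were spread upstream of it, as the histogram of match positions shows.

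**Figure D1:**
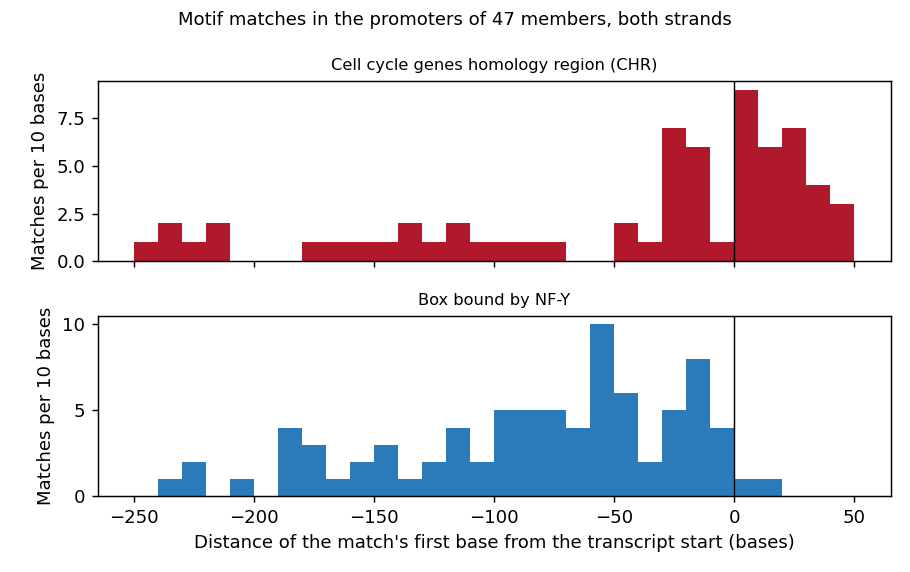
Matches of CHR letters (upper plot) and of the box bound by NF-Y (lower plot) in the 50 promoters of 47 genes, counted per 10 bases against the distance in bases of the match's first base from the transcript start at 0. CHR matches are densest within 50 bases of the start, and the NF-Y box matches lie mainly before it.

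The libraries held 5567481 to 8100538 gene counts each, and levels are given in CPM, counts scaled to a common library size after edgeR's TMM normalisation. Each of the 56 genes had at least 20 counts in every library, and 21 had at least 100. All libraries carried the alveolar macrophage markers Siglecf (477 to 609 CPM) and Itgax (1691 to 1940 CPM). The neutrophil marker Ly6g and the haemoglobin gene Hba-a1 had 0 counts in all 13 libraries, and the T-cell marker Cd3e had 5 counts in all. Neutrophil markers summed to 58.6 to 82.7 CPM over the 13 libraries and lymphocyte markers to 2.22 to 9.95 CPM. The kit keeps no strand, and the spans of 9 members overlap other counted genes whose counts exceed 1% of the member's own. Shared reads were not measured, so the counts of these members are uncertain: Ccna2, Cdca8, Cdc20, Kif4, Kif18b, Kif20a, Nusap1, Ckap2l and Ncapg.

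Divided by the length of the longest coding transcript, the highest levels in vehicle PBS were those of Smc4, a condensin ATPase (39.0 ± 4.49 CPM per kb, SD, n = 4), and Top2a, the topoisomerase that untangles sister chromatids (33.4 ± 8.01 CPM per kb). Bub1b, a spindle checkpoint kinase, followed with 30.9 ± 4.19 CPM per kb, and Mki67, which coats mitotic chromosomes and marks cycling cells, with 22.4 ± 4.997 CPM per kb. Over the same 4 libraries the ranges of Smc4 (32.3 to 41.5 CPM per kb), Top2a (23.8 to 43.4) and Bub1b (28.2 to 37.1) overlapped. Their order was not tested. At the low end were Cenpf (2.59 ± 0.636 CPM per kb), Ttk (2.48 ± 0.335 CPM per kb) and the kinesin Kif14 (1.54 ± 0.439 CPM per kb).

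Summed over the 56 genes, the level was 2956, 2339, 2223 and 1739 CPM in vehicle PBS libraries 1 to 4. In metformin PBS it was 1459, 1454 and 1462 CPM, in vehicle PM 2517, 2571 and 2611 CPM, and in metformin PM 2255, 2318 and 2108 CPM. The metformin PBS libraries were the lowest and lay close together, and both PM groups lay inside the wide range of vehicle PBS. The metformin PBS mean was 63.0% of the vehicle PBS mean, and the metformin PM mean was 86.8% of the vehicle PM mean. High genes weigh most in a sum, and the sums carry no test.

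**Figure D2:**
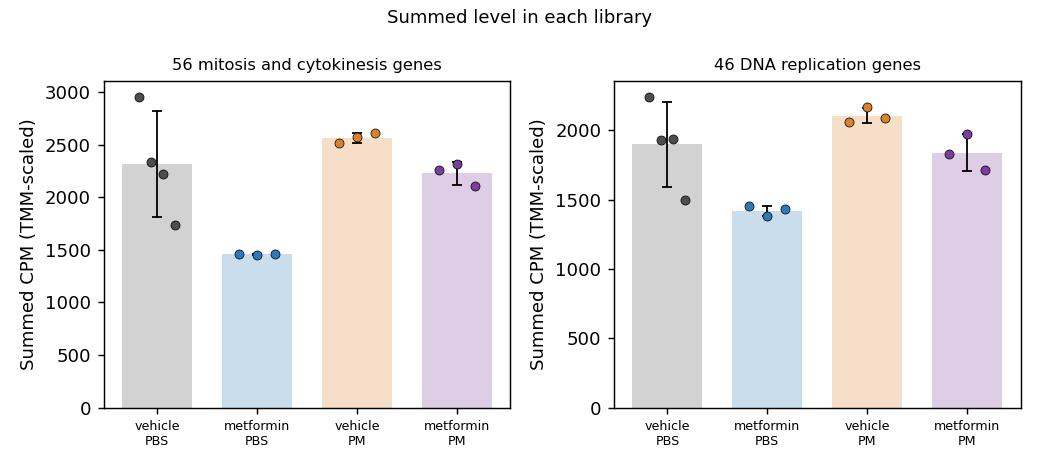
Summed level in CPM of the 56 mitosis and cytokinesis genes (left) and of 46 DNA replication genes (right), with 1 point per library, bars at the group mean and error bars of 1 SD (vehicle PBS n = 4, other groups n = 3). The metformin PBS libraries sit at 1454 to 1462 CPM in the left plot, under every other library, and vehicle PBS spreads from 1739 to 2956 CPM.

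The order of the groups was nearly the same from gene to gene. Metformin PBS had the lowest group mean for 56 of 56 genes, and vehicle PM the highest for 49. The metformin PM mean lay between those of metformin PBS and vehicle PM for 52 genes, and above vehicle PBS for 17. In bulk RNA, fewer dividing cells and less of these transcripts per cell cannot be told apart. The genes also moved together among vehicle PBS libraries: library 1 was the highest of the 4 for 53 genes and library 4 the lowest for 51. The median coefficient of variation over the genes was 25.2% in vehicle PBS, 10.2% in metformin PBS, 5.66% in vehicle PM and 6.73% in metformin PM. Because the genes rise and fall together from mouse to mouse, counts of genes are not counts of independent observations.

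**Figure D3:**
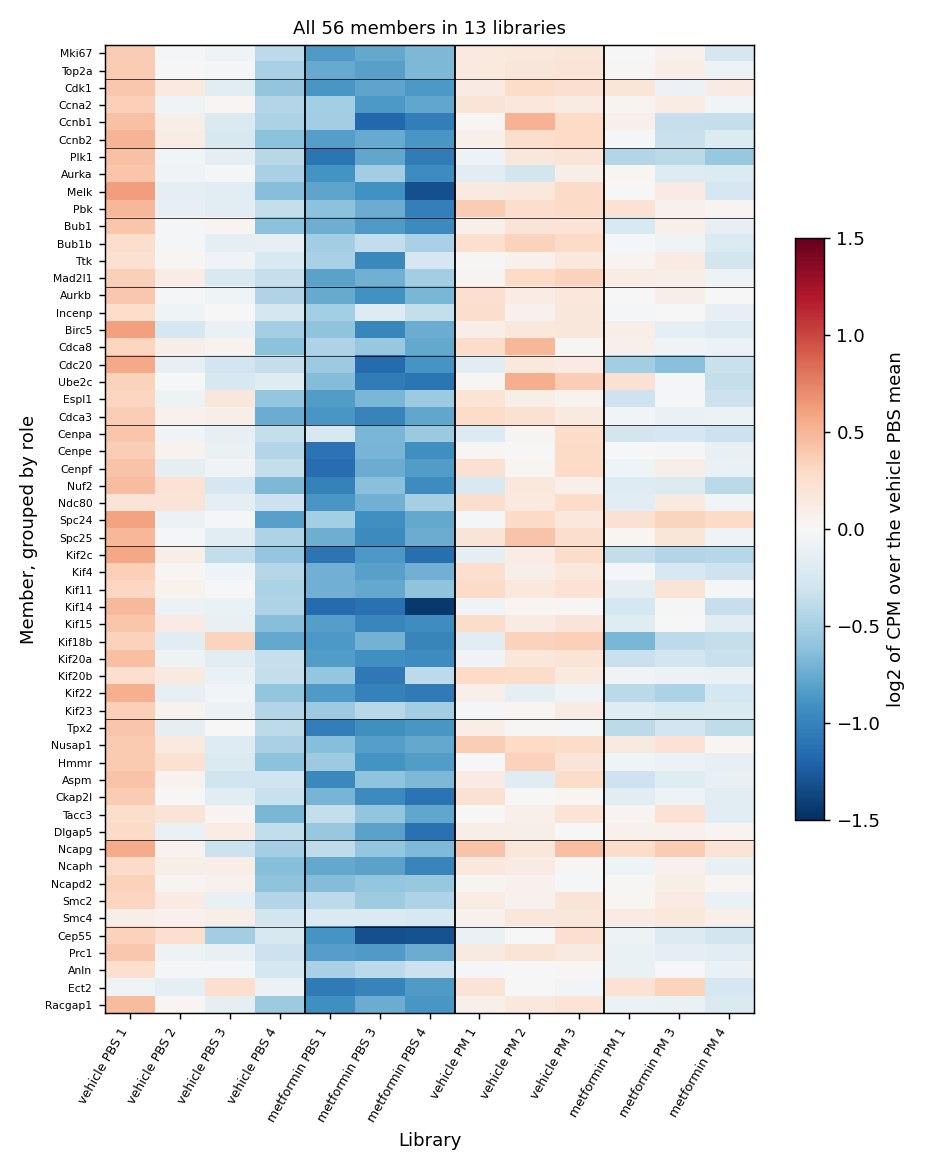
Level of each of the 56 genes (vertical, grouped by role) in each of the 13 libraries (horizontal), as log2 of CPM over the gene's vehicle PBS mean, with red for higher and blue for lower. The 3 metformin PBS columns are blue for nearly all genes, and the first and last vehicle PBS columns are red and blue along most of their length.

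Metformin against vehicle after PBS asks what the drug did in mice given no particles. Of the 56 genes, 48 fell and 0 rose at an adjusted p under 0.05 (edgeR's quasi-likelihood test, Benjamini-Hochberg over 11906 genes), where 1.93% of all genes fell and 1.13% rose. DESeq2 called 51 lower and limma-voom 44, and neither called any higher. The median log2 fold change of the 56 was -0.79, a level 0.579 times that of vehicle, with a range from -1.24 to -0.23, while the median over all genes tested was -0.0036. All 56 had an unadjusted p under 0.05 with a lower level, against 9.51% of all genes, and 0 of the 56 with a higher one (8.34% of all genes). In 42 of the 56, every metformin PBS library was below every vehicle PBS library, against 7.54% of all genes. The 48 made up a visible share of the 365 genes called in either direction. Without metformin PBS library 4 the count was 28, and without vehicle PBS library 4 it was 55. Without vehicle PBS library 1, the highest of its group, it was 33 and the median was -0.61. With only the 2 groups compared in the fit, 32 were lower. The monocyte marker list summed to 1989 to 2384 CPM in vehicle PBS and 2471 to 3033 CPM in metformin PBS, with 1 of 9 tested genes called higher (Apoe) and 0 lower. Of 17 alveolar macrophage markers, 2 were called lower, among them the scavenger receptor Marco (-1.11 ± 0.17), and 0 higher. The median log2 fold change of the 17 was 0.023. The list summed to 30925 to 35095 CPM in vehicle PBS and 28872 to 31097 CPM in metformin PBS. The part of these cells in the result was not tested.

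PM against PBS on metformin asks what particles did in drug-treated mice, and it shares the 3 metformin PBS libraries with the comparison just given. Here 45 of the 56 genes rose and 0 fell, where 7.18% of all genes rose and 5.6% fell. DESeq2 called 46 higher and limma-voom 44, with none lower by either, and 53 of the 56 had an unadjusted p under 0.05 for a rise (14.3% of all genes) and 0 for a fall (11.8%). The median log2 fold change was 0.69 (1.61-fold), with a range from 0.20 to 1.10. In 53 of the 56 genes every metformin PM library was above every metformin PBS library, against 16.1% of all genes. The lowest count with 1 library left out was 31, without metformin PM library 3. Monocyte markers summed to 2873 to 3286 CPM in metformin PM, with 4 of 9 tested genes called higher and 1 lower. Of 16 lymphocyte markers, 2 passed the filter on low counts, Igkc and Jchain, and they rose from at most 0.637 CPM to at least 0.778 CPM. Genes this low in metformin PBS pass the filter only through other libraries, so their rise is not independent of it. Endothelial and stromal markers summed to 129 CPM in each metformin PBS library and to 160 to 181 CPM in metformin PM, with 4 of 8 tested genes called higher. Alveolar macrophage markers summed to 28872 to 31097 CPM and to 32301 to 34916 CPM, with 9 of 17 genes called higher and 3 lower. Epithelial markers summed to 244 to 298 CPM and to 260 to 306 CPM, with 3 of 8 tested genes called higher and 1 lower. The platelet gene Pf4, the 1 erythroid and platelet marker tested, rose by 2.07 ± 0.35. The part of these cells in the result was not tested.

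**Figure D4:**
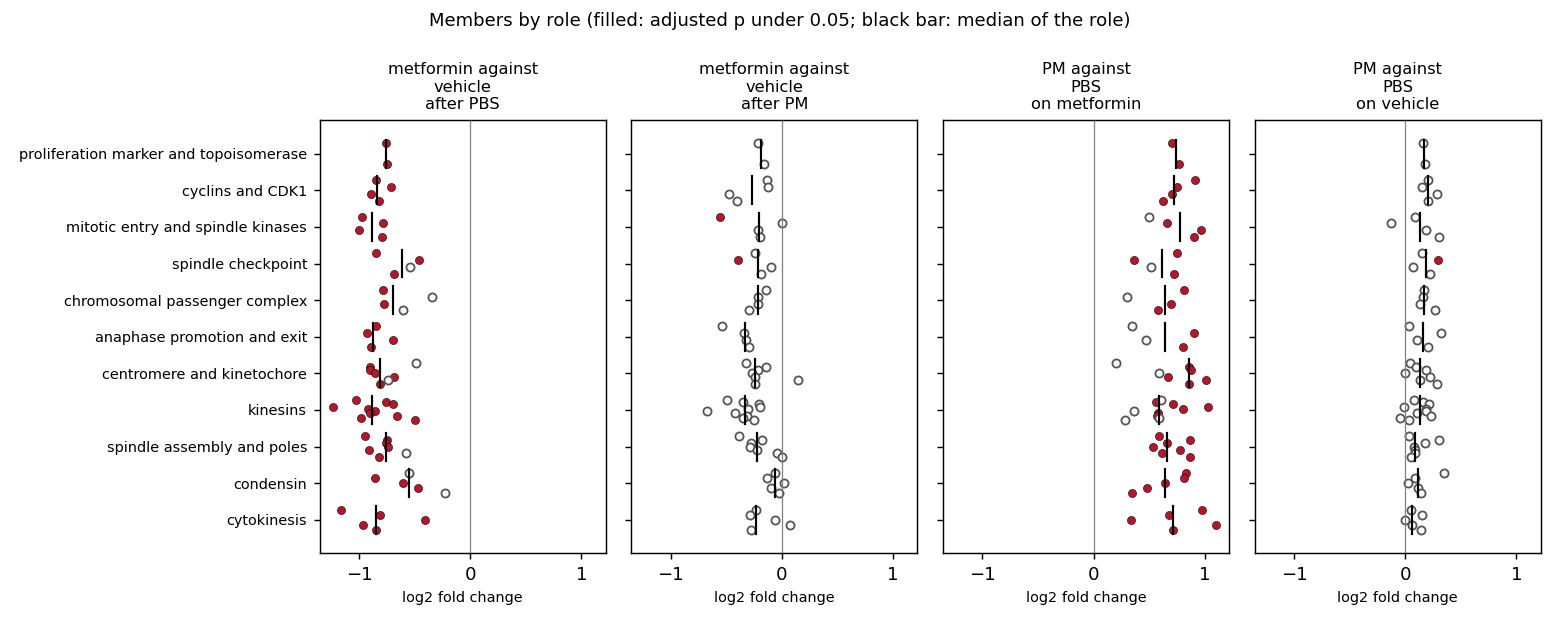
Log2 fold change of each gene (1 circle) in 4 comparisons, with the genes in rows by role, filled circles for an adjusted p under 0.05 and a black bar at the median of the role. After PBS every circle of the metformin comparison lies below 0, and after PM most circles are open and lie closer to 0.

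The proliferation marker and the topoisomerase changed alike. Mki67 measured 293, 223, 215 and 172 CPM in vehicle PBS, 126, 133 and 141 CPM in metformin PBS, 251, 252 and 256 CPM in vehicle PM, and 227, 236 and 189 CPM in metformin PM. Every metformin PBS library was below all others, and the metformin PM libraries lay inside the vehicle PBS range. With metformin after PBS, Mki67 fell by 0.76 ± 0.12 on the log2 scale (SE from the fit here and for all fold changes, edgeR adjusted p = 0.00262), and with PM on metformin it rose by 0.71 ± 0.13 (edgeR adjusted p = 0.000844). Top2a measured 227, 175, 171 and 124 CPM in vehicle PBS, 103, 98.8 and 109 CPM in metformin PBS, 193, 198 and 201 CPM in vehicle PM, and 176, 187 and 166 CPM in metformin PM. Its groups were placed like those of Mki67, with log2 fold changes of -0.75 ± 0.12 (edgeR adjusted p = 0.00303) and 0.77 ± 0.13 (edgeR adjusted p = 0.000509).

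Cyclins and CDK1, the engine of mitotic entry, fell with metformin after PBS in 4 of 4 genes and rose with PM on metformin in 4 of 4. Cdk1, the kinase itself, measured 41.6, 34.8, 28.2 and 20.9 CPM in vehicle PBS, 17.2, 18.2 and 17.3 CPM in metformin PBS, 34.0, 37.9 and 37.1 CPM in vehicle PM, and 35.6, 29.4 and 34.1 CPM in metformin PM. The metformin PBS libraries agreed within about 1 CPM and were the lowest. Cdk1 changed by -0.85 ± 0.16 (edgeR adjusted p = 0.00736) and by 0.91 ± 0.17 (edgeR adjusted p = 0.00121) in the 2 comparisons. Ccnb1, which encodes cyclin B1, measured 26.6, 20.7, 16.7 and 14.1 CPM in vehicle PBS, 13.6, 8.60 and 9.55 CPM in metformin PBS, 19.9, 27.99 and 24.1 CPM in vehicle PM, and 20.6, 15.4 and 15.3 CPM in metformin PM. Its metformin PBS and vehicle PBS libraries nearly met, at 13.6 and 14.1 CPM. The log2 fold changes were -0.89 ± 0.21 (edgeR adjusted p = 0.0212) and 0.70 ± 0.22 (edgeR adjusted p = 0.0401). Ccna2 (cyclin A2, which overlaps Exosc9) fell by 0.71 ± 0.13 and rose by 0.75 ± 0.14, and Ccnb2 (cyclin B2) fell by 0.82 ± 0.18 and rose by 0.63 ± 0.19.

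Among the kinases of mitotic entry and the spindle, 4 of 4 fell with metformin after PBS and 3 of 4 rose with PM on metformin. Plk1, a master kinase of mitosis, measured 24.2, 17.4, 16.3 and 13.4 CPM in vehicle PBS, 8.35, 10.4 and 8.63 CPM in metformin PBS, 17.0, 20.1 and 20.3 CPM in vehicle PM, and 13.2, 13.5 and 11.98 CPM in metformin PM. Both metformin groups lay below nearly all vehicle libraries, and the metformin PM libraries lay above the metformin PBS ones. Plk1 fell by 0.97 ± 0.17 with metformin after PBS (edgeR adjusted p = 0.00436), and its difference with PM on metformin was 0.50 ± 0.18 (edgeR adjusted p = 0.0834). Aurka, the spindle pole kinase, fell by 0.78 ± 0.18 and rose by 0.66 ± 0.19. Melk fell to 0.499 times its vehicle level and rose by 0.97 ± 0.24, and Pbk fell by 0.79 ± 0.18 and rose by 0.90 ± 0.18.

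The spindle checkpoint held some of the smaller falls, with a median of -0.61 and 3 of 4 genes lower. Bub1b, which encodes BubR1 of the inhibitory checkpoint complex, measured 136, 111, 103 and 104 CPM in vehicle PBS, 79.1, 87.6 and 80.7 CPM in metformin PBS, 135, 144 and 139 CPM in vehicle PM, and 111, 108 and 98.5 CPM in metformin PM. The metformin library levels were lower after either instillate, and vehicle PM overlapped vehicle PBS only through vehicle PBS library 1. Bub1b fell by 0.46 ± 0.08 with metformin after PBS (edgeR adjusted p = 0.00496) and rose by 0.36 ± 0.09 with PM on metformin (edgeR adjusted p = 0.00913). Bub1, a kinetochore kinase, fell by 0.85 ± 0.17 and rose by 0.75 ± 0.18, and Mad2l1, the sensor of unattached kinetochores, fell by 0.68 ± 0.15 and rose by 0.72 ± 0.15. Ttk, the kinase that starts checkpoint signalling, passed neither test, with -0.54 ± 0.19 and 0.52 ± 0.19.

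In the chromosomal passenger complex, which corrects faulty kinetochore attachments, 2 of 4 genes fell with metformin after PBS and 3 of 4 rose with PM on metformin. Aurkb, its kinase, measured 37.2, 27.9, 26.9 and 20.5 CPM in vehicle PBS, 16.7, 15.0 and 17.6 CPM in metformin PBS, 33.6, 30.3 and 31.4 CPM in vehicle PM, and 28.2, 29.9 and 28.2 CPM in metformin PM. No metformin PBS library reached any other. Aurkb fell by 0.78 ± 0.14 (edgeR adjusted p = 0.00573) and rose by 0.81 ± 0.15 (edgeR adjusted p = 0.0012). Birc5, which encodes survivin, measured 37.0, 20.2, 22.5 and 17.0 CPM in vehicle PBS, 15.9, 12.3 and 14.5 CPM in metformin PBS, 26.0, 27.1 and 27.2 CPM in vehicle PM, and 25.7, 22.04 and 21.2 CPM in metformin PM. Vehicle PBS library 1 stood well above the other 3 here. Birc5 fell by 0.77 ± 0.20 (edgeR adjusted p = 0.0354) and rose by 0.70 ± 0.20 (edgeR adjusted p = 0.0291). Incenp, the scaffold, passed neither test, with -0.35 ± 0.10 and 0.30 ± 0.10, and Cdca8, which encodes borealin, rose by 0.58 ± 0.18 with PM on metformin after a difference of -0.61 ± 0.17 that did not pass.

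Of the genes grouped here under anaphase promotion and mitotic exit, 4 of 4 fell with metformin after PBS, and 2 of 4 rose with PM on metformin. Ube2c, the ubiquitin-conjugating enzyme of the anaphase-promoting complex, measured 23.6, 18.5, 15.6 and 16.3 CPM in vehicle PBS, 11.8, 8.92 and 8.63 CPM in metformin PBS, 18.8, 27.1 and 23.9 CPM in vehicle PM, and 21.6, 18.2 and 14.5 CPM in metformin PM. All 3 metformin PBS libraries were the lowest, and the metformin PM libraries spread from just under the vehicle PBS range to its upper part. Ube2c fell by 0.92 ± 0.19 (edgeR adjusted p = 0.00912) and rose by 0.90 ± 0.19 (edgeR adjusted p = 0.00377). Cdc20, the activator of that complex, measured 28.01, 17.2, 15.5 and 14.7 CPM in vehicle PBS, 12.9, 8.44 and 10.2 CPM in metformin PBS, 17.0, 20.99 and 20.5 CPM in vehicle PM, and 13.2, 12.2 and 14.9 CPM in metformin PM. Both metformin groups were low, and metformin PM met the lowest vehicle PBS libraries. Cdc20 overlaps Elovl1, whose counts are several times its own. Cdc20 fell by 0.85 ± 0.20 (edgeR adjusted p = 0.0239), and with PM on metformin it differed by 0.35 ± 0.22 (edgeR adjusted p = 0.341). Espl1, which encodes separase, the protease that cuts cohesin, fell by 0.69 ± 0.15 and differed by 0.47 ± 0.16 without passing. Cdca3, whose place in this group was a choice made here, fell by 0.89 ± 0.17 and rose by 0.80 ± 0.18.

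At the centromere and kinetochore, 5 of 7 genes fell with metformin after PBS (median -0.81) and 5 of 7 rose with PM on metformin (median 0.86). Cenpe, a kinetochore motor that brings chromosomes to the spindle equator, measured 54.1, 43.4, 38.9 and 30.7 CPM in vehicle PBS, 19.3, 25.8 and 22.02 CPM in metformin PBS, 42.2, 42.0 and 51.1 CPM in vehicle PM, and 42.1, 41.3 and 38.6 CPM in metformin PM. The metformin PBS libraries were clear of all others, and the 3 remaining groups overlapped. Cenpe fell by 0.91 ± 0.15 (edgeR adjusted p = 0.00303) and rose by 0.86 ± 0.15 (edgeR adjusted p = 0.000863). Cenpf, of the outer kinetochore, fell by 0.90 ± 0.15 and rose by 0.87 ± 0.16. The NDC80 complex, which grips microtubule ends, gave falls of 0.69 ± 0.14 for Ndc80, 0.86 ± 0.20 for Nuf2 and 0.81 ± 0.18 for Spc25, and -0.74 ± 0.24 for Spc24, which did not pass. In the PM comparison on metformin Spc24 rose by 1.01 ± 0.24, Spc25 by 0.86 ± 0.18 and Ndc80 by 0.67 ± 0.15, while Nuf2 differed by 0.59 ± 0.21 without passing. Cenpa, the histone variant of centromeres, passed neither test and had the smallest difference of the 56 with PM on metformin, 0.20 ± 0.17.

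All 10 kinesins, the motors of the spindle and midzone, fell with metformin after PBS (median -0.88), and 6 of 10 rose with PM on metformin (median 0.58). Kif14, a motor of the cytokinetic midbody, had the largest fall of the 56. It measured 19.3, 13, 12.9 and 10.0 CPM in vehicle PBS, 6.22, 6.37 and 5.08 CPM in metformin PBS, 13.3, 14.2 and 14.0 CPM in vehicle PM, and 11.5, 13.5 and 10.9 CPM in metformin PM. The metformin PBS libraries sat far under the other 10. Kif14 fell by 1.24 ± 0.19 (edgeR adjusted p = 0.00262) and rose by 1.03 ± 0.20 (edgeR adjusted p = 0.00214). Kif11, the motor that separates the spindle poles, measured 61.6, 51.2, 49.3 and 35.7 CPM in vehicle PBS, 30.1, 29.2 and 32.5 CPM in metformin PBS, 60.3, 55.4 and 57.4 CPM in vehicle PM, and 45.2, 56.7 and 48.6 CPM in metformin PM. Its metformin PM libraries lay between its vehicle PM and metformin PBS libraries except for library 3, which was inside the vehicle PM range. Kif11 fell by 0.70 ± 0.13 (edgeR adjusted p = 0.00639) and rose by 0.71 ± 0.14 (edgeR adjusted p = 0.00155). Kif2c, a microtubule depolymerase, fell by 1.03 ± 0.22, Kif22, a chromokinesin, by 0.98 ± 0.19, and Kif15 by 0.92 ± 0.17. Kif20a, Kif20b, Kif4 and Kif18b fell by 0.90 ± 0.14, 0.66 ± 0.15, 0.75 ± 0.14 and 0.86 ± 0.23. The smallest fall of the family was that of Kif23, the centralspindlin motor, at 0.50 ± 0.12.

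Factors of spindle assembly and the poles fell with metformin after PBS in 6 of 7 cases and rose with PM on metformin in 7 of 7. Tpx2, which starts microtubule growth around chromosomes, was the member with the lowest p after PBS, at rank 4 of all genes tested. It measured 77.1, 52.2, 58.4 and 44.3 CPM in vehicle PBS, 28.3, 30.7 and 31.6 CPM in metformin PBS, 62.2, 58.8 and 57.1 CPM in vehicle PM, and 44.3, 47.6 and 44.5 CPM in metformin PM. The metformin PM libraries lay near the lowest vehicle PBS library and below every vehicle PM library. Tpx2 fell by 0.94 ± 0.13 (edgeR adjusted p = 0.00199) and rose by 0.59 ± 0.14 (edgeR adjusted p = 0.0083). Ckap2l fell by 0.91 ± 0.14, Hmmr by 0.76 ± 0.18, Nusap1 by 0.75 ± 0.15 and Aspm, a spindle pole protein, by 0.74 ± 0.16. Tacc3 differed by -0.57 ± 0.17 and did not pass after PBS, and rose by 0.62 ± 0.17 with PM on metformin.

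Condensin, the complex that compacts chromosomes, had the smallest fall of the roles (median -0.55), with 3 of 5 genes lower, while 5 of 5 rose with PM on metformin. Ncapd2 measured 111, 90.4, 91.4 and 57.7 CPM in vehicle PBS, 55.98, 58.6 and 59.0 CPM in metformin PBS, 90.1, 91.4 and 86.5 CPM in vehicle PM, and 88.5, 92.9 and 89.8 CPM in metformin PM. Vehicle PBS library 4 lay among the metformin PBS libraries, and the PM groups overlapped. Ncapd2 fell by 0.60 ± 0.13 (edgeR adjusted p = 0.0152) and rose by 0.64 ± 0.14 (edgeR adjusted p = 0.00377). Smc2, an ATPase of the complex, measured 94.7, 82.1, 69.7 and 55.7 CPM in vehicle PBS, 57.5, 52.4 and 54.8 CPM in metformin PBS, 81.5, 78.8 and 86.7 CPM in vehicle PM, and 77.1, 82.2 and 70.3 CPM in metformin PM. Again library 4 of vehicle PBS overlapped metformin PBS. Smc2 fell by 0.47 ± 0.12 (edgeR adjusted p = 0.0383) and rose by 0.48 ± 0.13 (edgeR adjusted p = 0.0147). Smc4 had the smallest difference of the 56 after PBS, -0.23 ± 0.07, which did not pass, and rose by 0.34 ± 0.08. Ncaph fell by 0.86 ± 0.16 and Ncapg differed by -0.55 ± 0.19 without passing.

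All 5 cytokinesis genes fell with metformin after PBS, and all 5 rose with PM on metformin. Ect2, the exchange factor that activates RhoA at the cleavage site, measured 28.8, 27.4, 35.7 and 28.2 CPM in vehicle PBS, 14.4, 15.0 and 16.6 CPM in metformin PBS, 34.6, 30.2 and 29.1 CPM in vehicle PM, and 34.9, 37.96 and 25.2 CPM in metformin PM. The metformin PBS libraries were near 15 CPM and the other 10 between 25.2 and 37.96 CPM, and vehicle PBS library 1 was not high here as it was for most members. Ect2 fell by 0.97 ± 0.14 (edgeR adjusted p = 0.00203) and rose by 1.10 ± 0.14, the largest rise of the 56 (edgeR adjusted p = 3.49e-05). Cep55, which recruits the abscission machinery to the midbody, measured 24.2, 22.7, 13.2 and 16.1 CPM in vehicle PBS, 10.3, 7.65 and 7.70 CPM in metformin PBS, 17.8, 19.1 and 22.8 CPM in vehicle PM, and 18.1, 16.6 and 15.7 CPM in metformin PM. Its vehicle PBS libraries split into a higher and a lower pair, all above metformin PBS. Cep55 fell by 1.16 ± 0.19 (edgeR adjusted p = 0.00332) and rose by 0.98 ± 0.20 (edgeR adjusted p = 0.00292). Racgap1, the partner of Kif23 in centralspindlin, fell by 0.85 ± 0.15, Prc1, the midzone microtubule bundler, by 0.81 ± 0.12, and Anln, the anillin scaffold of the contractile ring, by 0.40 ± 0.09.

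**Figure D5:**
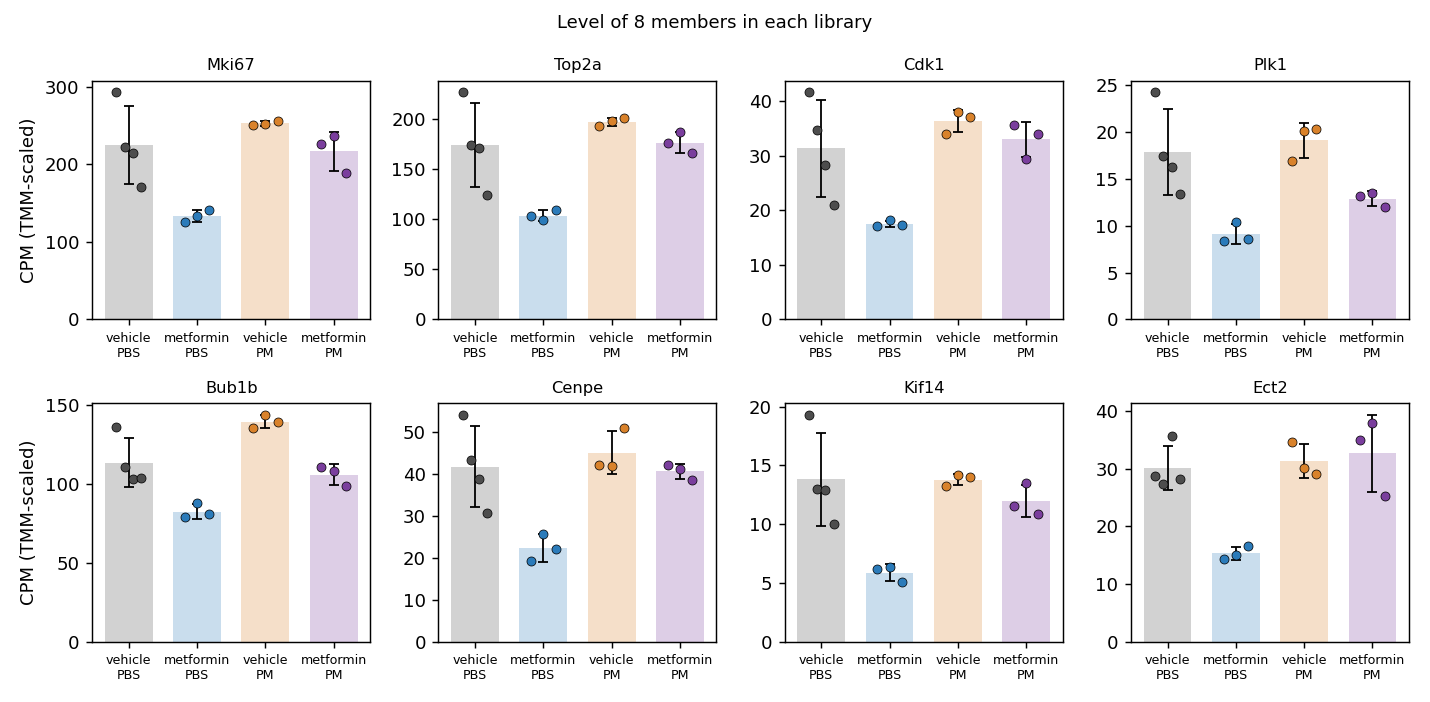
Level in CPM of 8 members in each library, with 1 point per library, bars at the group mean and error bars of 1 SD (vehicle PBS n = 4, other groups n = 3). In these 8 genes the metformin PBS points are the lowest of the 4 groups, and the metformin PM points of Plk1 stay between 11.98 and 13.5 CPM.

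PM against PBS on vehicle, the effect of particles without the drug, gave a single call among the 56. Bub1b rose by 0.29 ± 0.08 (1.23-fold, edgeR adjusted p = 0.0323), where 2.6% of all genes rose and 2.26% fell. No member fell by edgeR, DESeq2 or limma-voom, while 2 had an unadjusted p under 0.05 for a rise (8.11% of all genes) and 0 for a fall (8.54%). The median log2 fold change was 0.14, with 51 of 56 genes above 0 against 49.6% of all genes. The extremes were Ncapg, at 0.34 ± 0.17 (edgeR adjusted p = 0.305), and Aurka, at -0.12 ± 0.17 (edgeR adjusted p = 0.787). For no gene were all vehicle PM libraries above all vehicle PBS libraries, against 7.33% of all genes, and for 48 of the 56 the 3 vehicle PM libraries lay inside the vehicle PBS range. The call needed nearly all of the libraries compared. It was lost without vehicle PBS library 2, 3 or 4 or vehicle PM library 1, 2 or 3 (0 members each time). By contrast, 9 members were called higher without vehicle PBS library 1. Without that library the median was 0.31, and without vehicle PBS library 4 it was 0.02. With only the 2 groups compared in the fit, no member was called, and without a filter on low counts 3 were higher. Over the same groups the monocyte list summed to 1989 to 2384 CPM and to 2815 to 3781 CPM, with 5 of 9 genes called higher. The 2 tested lymphocyte markers, Igkc and Jchain, were called higher, and here too the filter may have kept them through the PM libraries. The list summed to 2.22 to 4.70 CPM in vehicle PBS and to 3.74 to 9.95 CPM in vehicle PM. Pf4 rose by 2.13 ± 0.36. Of 17 alveolar macrophage markers 6 were called higher and 4 lower, and of 8 endothelial and stromal markers 1 was higher. The part of these cells was not tested.

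Metformin against vehicle after PM gave 2 lower members of 56 and 0 higher, where 2.81% of all genes fell and 4.08% rose. Bub1b fell by 0.39 ± 0.08 (edgeR adjusted p = 0.00637) and Plk1 by 0.56 ± 0.16 (edgeR adjusted p = 0.0417). At an unadjusted p under 0.05 there were 14 lower (9.54% of all genes) and 0 higher (10.8%), and DESeq2 and limma-voom called 2 lower each and 0 higher. In 32 of the 56 genes every metformin PM library was below every vehicle PM library, against 13.1% of all genes. The median log2 fold change was -0.23, with a range from -0.67 (Kif18b, ± 0.22, edgeR adjusted p = 0.0714) to 0.14 (Spc24, ± 0.21, edgeR adjusted p = 0.775). By role the medians ran from -0.33 for the kinesins and for anaphase promotion to -0.06 for condensin. Cdc20 differed by -0.54 ± 0.20 (edgeR adjusted p = 0.113), Kif2c by -0.50 ± 0.20 (edgeR adjusted p = 0.163) and Ccnb1 by -0.48 ± 0.19 (edgeR adjusted p = 0.15). A fit with only the vehicle PM and metformin PM libraries called 16 members lower, and the fit without a filter on low counts 14. The count was 7 without vehicle PBS library 1, 5 without vehicle PBS library 4, and 1 without vehicle PBS library 2, metformin PBS library 4, vehicle PM library 2 or 3, or any metformin PM library. Endothelial and stromal markers had 3 of 8 tested genes called higher in metformin PM than in vehicle PM, and their part was not tested.

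The difference of the PM effects tests whether particles acted differently with and without the drug, and it uses all 4 groups, so it is not independent of the comparisons above. All 56 genes had a positive difference (51.4% of all genes), with a median of 0.55, and 36 had an unadjusted p under 0.05 (6.29% of all genes), and 0 had one for a negative difference (5.3%). Ect2 and Dlgap5 passed the adjusted threshold as higher, 2 of 56 where 0.89% of all genes did, and 0 were called lower by edgeR, DESeq2 or limma-voom (0.546% of all genes by edgeR). The difference was 1.04 ± 0.19 for Ect2 (edgeR adjusted p = 0.00709), and 0.82 ± 0.19 for Dlgap5, a spindle protein that stabilises kinetochore fibres (edgeR adjusted p = 0.0366). Dlgap5 measured 28.8, 22.1, 25.5 and 18.4 CPM in vehicle PBS, 16.0, 13.5 and 10.9 CPM in metformin PBS, 25.1, 25.2 and 23.6 CPM in vehicle PM, and 24.7, 24.8 and 24.4 CPM in metformin PM. Its PM libraries were alike with and without the drug, and its metformin PBS libraries were the lowest. Kif14 had a difference as large as Ect2 with a wider error, 1.04 ± 0.26 (edgeR adjusted p = 0.055), and Bub1b had the smallest, 0.07 ± 0.12 (edgeR adjusted p = 0.894). DESeq2 called 4 higher and the fit without a filter on low counts 26. Without vehicle PBS library 4, the lowest of its group, 25 members passed and the median was 0.67. Without vehicle PBS library 1 the median was 0.37. The count was 1 without vehicle PBS library 1, metformin PBS library 3 or 4, any vehicle PM library or any metformin PM library.

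Averaged over the other factor, 50 of the 56 genes were lower with metformin (5.41% of all genes) and 43 were higher with PM (8.63% of all genes), by edgeR's adjusted p. In the opposite directions 0 were called, against 5.41% and 7.76% of all genes, and DESeq2 and limma-voom called 0 as well. The medians were -0.50 and 0.43. Both averages include the metformin PBS libraries.

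Other genes of the cycle were counted from lists of named genes. Over all genes tested, 1.93% fell with metformin after PBS, 7.18% rose and 5.6% fell with PM on metformin, and 2.81% fell with metformin after PM. Of 58 further mitosis genes, 20 fell with metformin after PBS (median -0.60), and 24 rose with PM on metformin (median 0.53). Depdc1a, a mitotic gene outside the 56, fell by 1.12 ± 0.21 and rose by 1.32 ± 0.21, and Sgo2a, a shugoshin that protects cohesin, was the single gene of the list lower with metformin after PM, by 0.58 ± 0.16. Of 46 DNA replication genes, 17 fell with metformin after PBS (median -0.43), among them Clspn, a mediator of the replication checkpoint (-0.99 ± 0.15), Rfc3, of the clamp loader (-0.84 ± 0.14), and Rrm1, the large subunit of ribonucleotide reductase (-0.66 ± 0.12). With PM on metformin 19 rose and 1 fell (median 0.41). After PM, 6 replication genes were lower with metformin, led by Tipin (-0.79 ± 0.16), Clspn (-0.62 ± 0.15) and Mcm3 (-0.39 ± 0.10), against the 2 of 56 mitosis genes. The medians had the other order, -0.18 for the 46 replication genes and -0.23 for the 56 mitosis genes. Neither contrast was tested. None of the 58 and none of the 46 was called with PM on vehicle by edgeR.

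Among 20 transcriptional regulators of the cycle, 3 fell with metformin after PBS (1.93% of all genes) and 6 rose with PM on metformin (7.18% of all genes). Foxm1, which drives G2 and M genes, measured 39.6, 28.8, 32.7 and 20.9 CPM in vehicle PBS, 19.2, 18.5 and 17.3 CPM in metformin PBS, 38, 32.5 and 33.2 CPM in vehicle PM, and 28.9, 30.95 and 30.97 CPM in metformin PM. Its metformin PBS libraries were the lowest 3 of the 13. Foxm1 fell by 0.74 ± 0.15 (edgeR adjusted p = 0.00912) and rose by 0.73 ± 0.16 (edgeR adjusted p = 0.00393), while Mybl2, which encodes B-MYB, differed by -0.65 ± 0.18 (edgeR adjusted p = 0.0584) and rose by 0.68 ± 0.19 (edgeR adjusted p = 0.021). E2f8 and E2f7, repressors of the E2F family, fell by 0.95 ± 0.19 and 0.88 ± 0.20. Of 12 G1 cyclins and kinases, 3 fell with metformin after PBS: Ccne1 by 0.75 ± 0.17, Ccnd2 by 0.44 ± 0.08 and Cdc25a by 0.43 ± 0.10. Myc, the growth regulator, rose by 0.82 ± 0.15 with PM on vehicle. Of 19 CDK inhibitors and p53 targets tested, 3 fell after PBS, namely Phlda3, Cdkn2c and Cdkn3, and Cdkn1a, which encodes p21, passed no test, with 0.13 ± 0.08 after PBS (edgeR adjusted p = 0.427) and 0.20 ± 0.09 after PM (edgeR adjusted p = 0.187).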

How the data were processed

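Per the labels' protocols, polyadenylated RNA of sorted alveolar macrophages was made into NEBNext Ultra I libraries and read as 75 bp single ends. Per the submitters' processing notes, bcl2fastq 2.19, TopHat2, HTSeq and edgeR were used with the mm10 build. Which annotation release and which strand option HTSeq ran with is not given in the sources used here. The deposited table holds raw read counts for 43430 genes and, per the file headers, coordinates (unit other), used only for positions and overlaps. Symbols matched 42462 gene IDs, and all 56 members lay within 10000 bases of their GENCODE M21 start.

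Genes were kept with filterByExpr, scaled by the trimmed mean of M values and tested in edgeR 4.0.16 (R 4.3.3) with 1 quasi-likelihood fit over 4 group coefficients, 9 residual degrees of freedom and Benjamini-Hochberg adjustment over 11906 genes, called at an adjusted p under 0.05. The procedure was tested on simulated data. No library lacked a group, and the numbers of replicates (3 or 4) limit the precision. Replicate pairs correlated at r = 0.987 to 0.992 over genes and differed by more than sampling noise. The members and gene lists were chosen with earlier results of these data known. Members given in full are a named panel of 16, those with the lowest adjusted p and those at the extremes of each comparison; of other genes, at most 3 called per list and comparison, with Cdkn1a, Foxm1 and Mybl2. The alternatives were DESeq2 1.42.0, limma-voom 3.58.1, other scalings and filters, each library left out, a replicate block, only the groups compared, and, added after seeing the data, leaving out the 9 members that overlap other genes.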

Additional observations from a re-analysis of the deposited data

Results flagged for a closer look

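Among the 4 vehicle PBS libraries, 57 quantities (the 56 genes and their sum) were searched for a library set apart from its group by Dixon's criterion (0.829 for 4 samples). Of the 57, 2 were found. Chance flags about 1 in 20 of such quantities, so this is no more than chance gives. Smc4 was at 139.3 CPM in vehicle PBS library 4, with the other 3 libraries between 176.3 and 179.0 CPM, so that its gap took up 0.932 of the range. Ect2 was at 35.71 CPM in vehicle PBS library 3, with the other 3 between 27.42 and 28.81 CPM, a gap of 0.832 of the range. In the test of the difference of the PM effects with and without metformin, Ect2 (1.04 on the log2 scale) and Dlgap5 (0.82) passed the adjusted threshold, edgeR's quasi-likelihood test giving adjusted p = 0.00709 and 0.0366.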

How the results depend on the processing

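The falls with metformin after PBS and the rises with PM on metformin kept their direction and stayed within 1.5 times their counts under every scaling, filter and tool tried, and no median changed direction in any comparison. With 1 library left out, counts ran from 28 to 55 (lower with metformin after PBS), 31 to 51 (higher with PM on metformin), 0 to 9 (higher with PM on vehicle), 1 to 7 (lower with metformin after PM) and 1 to 25 (higher for the difference of the PM effects). Without a filter on low counts the last 3 were 3, 14 and 26. With only the groups compared, metformin after PBS gave 32, PM on vehicle 0 and metformin after PM 16. Without the 9 members that overlap other genes, 41 were lower after PBS and 38 higher with PM on metformin. DESeq2 gave 4 for the difference. The cause was not tested.

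Replicate numbers did not pair the samples: deviations of same-numbered libraries correlated above 0.1 in 1 of 16 pairs (-0.10 to 0.12). With a replicate block the counts were 46 (lower with metformin after PBS), 44 (higher with PM on metformin), 0 (PM on vehicle), 1 (metformin after PM) and 7 (difference), and the log2 fold change of Ncapd2 with PM on vehicle turned to -0.025.

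When each library was left out in turn, 23 of the 56 members changed sign at least once with PM on vehicle, 6 with metformin after PM and 2 for the difference of the PM effects, and none of these was called. Among 16 members followed in every comparison, the ranges with PM on vehicle were -0.060 to 0.30 (Cdc20), -0.091 to 0.19 (Cep55), -0.015 to 0.25 (Cenpe), -0.017 to 0.27 (Plk1) and -0.13 to 0.16 (Ncapd2). Ncapd2 ran from -0.013 to 0.032 with metformin after PM, and the difference of the PM effects for Bub1b from -0.0315 to 0.11. Among called genes, Dlgap5 lost its call for the difference without 10 of the 13 libraries, and Ect2 without none.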

Other observations

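Of 11 tested genes of macrophage growth and self-renewal, 4 were called higher with PM on vehicle (2.6% of all genes). With PM on metformin 2 were called higher (7.18% of all genes) and 4 lower (5.6% of all genes). With PM on vehicle, Csf1r, the receptor for CSF1, rose by 0.40 ± 0.06 on the log2 scale (edgeR adjusted p = 0.000562), and the receptor chains Csf2rb2 and Csf2rb rose by 0.35 ± 0.06 and 0.28 ± 0.05. With PM on metformin, Csf2rb2 rose by 0.41 ± 0.06 and Csf2rb by 0.27 ± 0.06. Csf2ra fell by 0.28 ± 0.07, Klf2 by 0.74 ± 0.14, Klf4 by 0.42 ± 0.07 and Bhlhe41 by 0.74 ± 0.11. Csf1r differed by 0.15 ± 0.07 (edgeR adjusted p = 0.168). Bhlhe41, a repressor tied to alveolar macrophage self-renewal, measured 178, 152, 162 and 144 CPM in vehicle PBS, 138, 162 and 158 CPM in metformin PBS, 170, 214 and 155 CPM in vehicle PM, and 84.9, 82.0 and 108 CPM in metformin PM. All 3 metformin PM libraries were the lowest of the 13. Bhlhe41 fell by 0.98 ± 0.11 with metformin after PM (edgeR adjusted p = 3.2e-05), and its difference of the PM effects was -0.92 ± 0.15 (edgeR adjusted p = 0.00444). Its relative Bhlhe40 rose by 0.42 ± 0.07 with PM on vehicle and by 0.30 ± 0.07 with metformin after PBS. Btg2, an antiproliferative p53 target, fell by 0.51 ± 0.09 with metformin after PM and had a difference of the PM effects of -0.71 ± 0.13 (edgeR adjusted p = 0.00607).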
